A study of Mus musculus with 2 samples.

Results

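The genes described here are Gzma, Gzmb, Prf1 and Fasl, which code for 4 effector proteins of cytotoxic lymphocytes. They were chosen by symbol, and all 4 were found among the 31017 gene symbols measured. Cytotoxic CD8 T cells can kill by releasing the contents of secretory granules onto a target cell. Perforin, the product of Prf1, opens pores in the target membrane and lets granzymes, which are serine proteases, reach the cytosol. Granzyme B, from Gzmb, cleaves caspase substrates and starts apoptosis, while granzyme A, from Gzma, has a different cleavage specificity and is also linked to inflammation. Fas ligand, from Fasl, acts outside the granule route by binding the death receptor Fas. In resting spleen these genes are known mainly from antigen-experienced and effector CD8 T cells, natural killer (NK) cells and related lymphocytes.

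The study transferred total CD8 T cells of young mice into aged mice and sequenced both CD8 T cell populations from the spleen by droplet 5′ single-cell RNA sequencing, which counts unique molecular identifiers (UMIs) near the 5′ end of each transcript. The old recipient library held CD45.2 cells of a wild-type C57BL/6J host that was 24 months old at transfer and 25 months old at harvest. The young donor library held CD45.1 cells from wild-type C57BL/6J mice of 3 months, taken from a 25-month-old host 1 month after transfer. Both libraries were sorted as CD3e+CD8a+ cells and so shared the aged host environment and the spleen. The donor cells had also been isolated and transferred, which the recipient cells had not. There was 1 library per group, and the labels did not say whether both came from the same mouse or whether mice were pooled. Age, origin, CD45 allele, transfer and library therefore cannot be told apart in any comparison here, and no p-value was computed.

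After filtering, 5341 recipient cells with a median of 6932 UMIs and 7451 donor cells with a median of 7840 UMIs were kept. Of these, 97.3% and 99.2% held UMIs of both a CD3 gene and a CD8 gene. Markers of NK cells (Ncr1, Klrb1c and Fcer1g) summed to 21.7 CPM (UMIs of a gene scaled to a library total of 1000000) in recipient cells and 2.59 CPM in donor cells, with at least 1 UMI in 224 and 90 cells. Ncr1, which marks NK cells most strictly, had 2 UMIs among kept recipient cells and 0 among kept donor cells. Cd4 was at 0 and 0.0342 CPM, and the B cell and myeloid lists each summed to at most 1.32 CPM. The libraries shared 105 barcodes, of which 61 and 66 were kept. Intervals below are 95% intervals of counting error only, since cells are not replicates.

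The genes lie on 4 chromosomes of the GRCm38 build. Gzma (ENSMUSG00000023132) is at chr13:113093825-113100981 on the minus strand, 70.6 kb from Gzmk, the gene of granzyme K. Gzmb (ENSMUSG00000015437) is at chr14:56258838-56262260 on the minus strand, in a cluster with Gzmc, Gzmd, Gzme, Gzmf, Gzmg and Gzmn. Prf1 (ENSMUSG00000037202) is at chr10:61297833-61304680 on the plus strand, and Fasl (ENSMUSG00000000817) at chr1:161780689-161788495 on the minus strand. No stretch of 50 bases in the annotated transcripts of the 4 genes occurred in a transcript of another gene. Fasl lies 23.7 Mb from Ptprc, the gene whose CD45.1 and CD45.2 alleles separate the libraries, and whether linked strain differences reach Fasl was not tested.

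The upstream regions of all 4 genes are shown because Gzma and Gzmb differed between the libraries by more than 1.5-fold while Prf1 and Fasl did not. Each is the 250 bases before the RefSeq start site in GRCm38.p6, written 5′ to 3′ on the gene's strand. The intervals are chr13:113100982-113101231 for Gzma, chr14:56262335-56262584 for Gzmb, chr10:61297586-61297835 for Prf1 and chr1:161788496-161788745 for Fasl. Capitals mark matches on either strand to TGTGGT (a RUNX core), TGANTCA (AP-1), TGACGT (a CRE core), GTGTGA (a T-box core) or TATAAA.
Gzma: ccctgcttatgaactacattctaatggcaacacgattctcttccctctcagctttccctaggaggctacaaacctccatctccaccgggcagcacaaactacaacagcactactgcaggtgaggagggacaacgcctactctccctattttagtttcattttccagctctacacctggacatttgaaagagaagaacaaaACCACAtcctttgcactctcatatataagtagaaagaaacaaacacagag
Gzmb: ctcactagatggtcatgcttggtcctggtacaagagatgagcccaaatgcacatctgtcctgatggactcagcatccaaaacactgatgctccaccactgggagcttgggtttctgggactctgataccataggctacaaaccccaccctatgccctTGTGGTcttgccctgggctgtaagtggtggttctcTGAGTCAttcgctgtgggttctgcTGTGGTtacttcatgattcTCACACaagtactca
Prf1: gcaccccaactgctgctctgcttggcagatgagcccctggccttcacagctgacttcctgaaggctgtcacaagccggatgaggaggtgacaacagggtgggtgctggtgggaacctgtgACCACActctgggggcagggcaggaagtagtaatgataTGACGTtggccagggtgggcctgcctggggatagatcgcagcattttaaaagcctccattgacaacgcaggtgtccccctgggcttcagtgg
Fasl: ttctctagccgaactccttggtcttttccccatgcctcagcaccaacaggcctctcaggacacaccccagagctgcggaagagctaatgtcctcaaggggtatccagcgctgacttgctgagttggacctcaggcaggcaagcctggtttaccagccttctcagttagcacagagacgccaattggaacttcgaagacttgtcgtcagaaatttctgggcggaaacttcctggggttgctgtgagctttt
The RUNX core was found in 3 of the 4 windows, with its first base at -50 in Gzma, at -93 and -34 in Gzmb and at -130 in Prf1. It also occurred in 16.8% of the 32851 RefSeq windows that reach from 250 bases before to 50 after a start. Gzmb alone held the AP-1 letters, at -58 (7.81% of windows), and the T-box letters, at -15 (14.5%). The CRE core lay at -92 in Prf1 and at 5 bases past the Gzmb start, outside the stretch printed (7.51% of windows). TATAAA was in none of the 4 windows and in 13.6% of all. GENCODE M21 ends the Gzmb gene at the position given above, inside the RefSeq transcript, so the Gzmb positions hold for the RefSeq start only. A match describes the letters, and binding of a factor was not measured.

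Gzma, the granzyme A gene, was higher in the old recipient than in the young donor. It had 1958 UMIs in the recipient, which is 51.7 CPM (49.4 to 54.0), and 591 UMIs in the donor, which is 10.1 CPM (9.32 to 10.97). The recipient level was 5.11-fold that of the donor, a log2 ratio of 2.35 [2.22, 2.49], and ranked 11 from the highest among the 10393 genes with at least 100 UMIs over both libraries. Of these genes, 3.26% were at least 1.5-fold higher in the recipient and 2.03% at least 1.5-fold lower.

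Gzmb was the other of the 2 members, out of 4, past 1.5-fold. It had 1192 UMIs in the recipient, or 31.5 CPM (29.7 to 33.3), and 813 UMIs in the donor, or 13.9 CPM (13.0 to 14.9). The log2 ratio was 1.18 [1.05, 1.31], which is 2.26-fold and rank 83. When each cell was scaled to its own total before averaging, the log2 ratio was 0.90.

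Prf1 and Fasl stood on the other side of 0 and close to it. Prf1 had 2138 UMIs, or 56.5 CPM (54.1 to 58.9), in the recipient and 3947 UMIs, or 67.6 CPM (65.5 to 69.7), in donor cells, giving a log2 ratio of -0.26 [-0.34, -0.18]. Fasl had 478 UMIs, or 12.6 CPM (11.5 to 13.8), in the recipient and 836 UMIs, or 14.3 CPM (13.4 to 15.3), in donor cells, giving a log2 ratio of -0.18 [-0.35, -0.02]. The median log2 ratio over all 10393 genes was 0.04, and none of the 4 members was 1.5-fold lower. A sum over cells cannot by itself tell more cells with the gene from more RNA per cell, so both were counted.

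The share of cells with a UMI of Gzma was small in both libraries. It was 3.58% (191 cells) in the recipient and 1.95% (145 cells) in the donor, and 2.51% and 1.17% once every cell was thinned to 2000 UMIs, a ratio of 2.13 (1.63 to 2.79). Thinning left out 75 recipient and 46 donor cells that were shallower than this. Cells with Gzma were themselves shallower than the rest, with median depths of 4107 and 4765 UMIs against 6995 and 7855 in cells without it.

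For Gzmb the share was 8.56% (457 cells) in the recipient and 5.45% (406 cells) in the donor, and 5.30% and 2.81% after thinning, a ratio of 1.89 (1.58 to 2.25). Prf1 was found in 30.6% (1632 cells) and 38.8% (2894 cells), and in 12.3% and 13.7% after thinning, a ratio of 0.901 (0.822 to 0.988). Fasl was found in 7.34% (392 cells) and 9.56% (712 cells), and in 3.32% and 3.51% after thinning, a ratio of 0.946 (0.784 to 1.14). Without thinning the ratios of Prf1 and Fasl were 0.787 and 0.768, so both were nearer 1 at equal depth, and the interval for Fasl held 1. The Prf1 share turned when 2 UMIs were asked for after thinning, to a ratio of 1.30 whose interval (0.972 to 1.74) held 1.

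Free RNA in droplets can give a UMI in cells that do not express a gene, so the shares were read against naive-marked cells. Cells with UMIs of Ccr7 and Lef1 and none of Ccl5, Cxcr3, Nkg7, Gzmk and Cx3cr1 numbered 68 in the recipient and 35 in the donor, and held 0 UMIs of Gzma and Gzmb. Fasl was found in 0 of these recipient cells and in 2 of these donor cells (5.71%, 0.70 to 19.2), an interval that holds the 9.56% over all donor cells. Because these were few, a wider set was defined after the data were seen, with UMIs of Ccr7 and Lef1 and none of Ccl5, Gzmk and Cx3cr1 (1440 and 1208 cells, median depths 7766 and 8073 UMIs). In it Gzma was found in 0.764% and 0.745% of cells, Gzmb in 0.903% and 0.331%, and Fasl in 0.417% and 0.248%. The shares of these 3 genes among all cells lay above those levels in both libraries. Leaving out cells with Ccl5, Gzmk or Cx3cr1 UMIs also leaves out most cells with these genes. The low shares thus partly follow from the definition and do not measure free RNA alone.

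Prf1 had another pattern. It was found in 19.8% of recipient cells and 20.9% of donor cells of the wider naive-marked set, at 27.9 CPM (25.0 to 31.2) and 30.6 CPM (27.2 to 34.2). These levels did not differ between the libraries beyond counting error, with a log2 ratio of -0.13 [-0.36, 0.10]. Whether Prf1 UMIs in such cells are free RNA or low expression was not tested. At 2000 UMIs per cell the shares were 5.63% and 6.62%, against 12.3% and 13.7% over all cells.

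The 4 genes differed in how their UMIs were spread over cells. In the recipient a cell with Gzma held 10.3 UMIs of it on average and the highest held 123, and in the donor the mean was 4.08 and the highest 51. Cells with at least 10 Gzma UMIs numbered 60 in the recipient and 12 in the donor, and they held 81.1% and 48.7% of all Gzma UMIs. Just 22 recipient cells and 13 donor cells held 50% of the Gzma UMIs. Without the 10 cells richest in Gzma in each library, the log2 ratio was 2.66, above the value with them. Those cells held 629 of the 1958 recipient UMIs and 267 of the 591 donor UMIs, a larger part in the donor. Removing them thus raises the ratio by construction, and the value cannot tell whether the ratio rests on few cells.

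Gzmb followed the same shape at lower counts per cell. Its mean was 2.61 UMIs per positive cell in the recipient and 2.00 in the donor, with maxima of 52 and 14, and 13 and 3 cells held at least 10 UMIs. For Prf1 and Fasl the counts were mostly single. Prf1 averaged 1.31 and 1.36 UMIs per positive cell with a highest of 7 in each library, and 76.5% and 72.2% of its positive cells held exactly 1. Fasl averaged 1.22 and 1.17 UMIs with maxima of 5 and 4, and 83.4% and 85.5% of its positive cells held exactly 1.

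**Figure D1:**
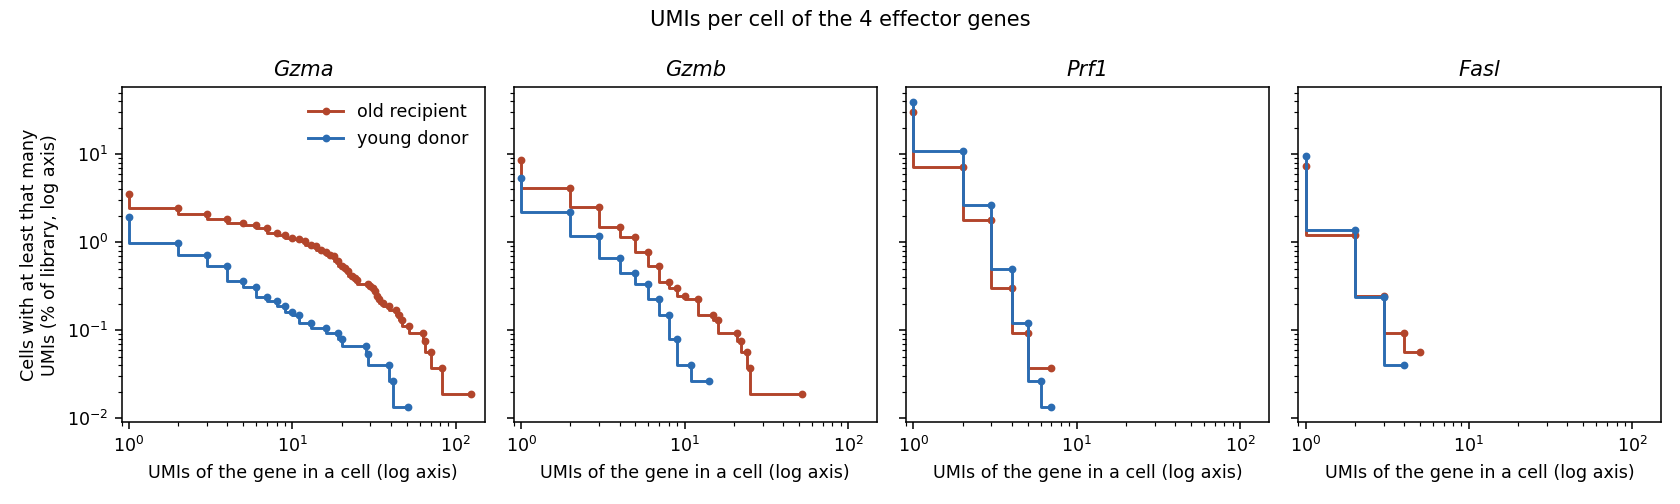
Share of cells (percent of the library, log axis) with at least a given number of UMIs of Gzma, Gzmb, Prf1 or Fasl (x axis, log), with old recipient cells in red and young donor cells in blue. The recipient curves of Gzma and Gzmb lie above the donor curves along their length and reach 123 and 52 UMIs, while those of Prf1 and Fasl end at 7 UMIs or below in both libraries.

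The cells richest in Gzma differed between the 2 libraries in some of the genes counted. Among the 60 recipient cells with at least 10 Gzma UMIs, 42 held UMIs of Cx3cr1 (the fractalkine receptor), 43 of Klrg1 (an inhibitory receptor of terminal effector cells), 43 of Zeb2 (a transcription factor of such cells) and 39 of S1pr5 (a receptor for egress into blood). Pdcd1, which codes for the inhibitory receptor PD-1, was found in 6 of them. Among the 12 donor cells of that class, 1 held Cx3cr1, 2 Klrg1, 1 Zeb2 and 2 S1pr5, while 7 held Pdcd1. Gzmk was found in 43 of 60 and 11 of 12, and Ncr1 in none of either. Of the other genes counted, Ccl5 was found in all of both classes. Gzmb was found in 48 and 8, Tbx21 in 36 and 6, Prf1 in 30 and 10, Fasl in 19 and 5 and Eomes in 15 and 5. Trbv29, a receptor beta segment described below, was assigned to 37 of the 60 recipient cells and 0 of the 12 donor cells. The profile of the recipient class without that segment was not tested. Median depths of the 2 classes were 3307 and 3274 UMIs. The donor class is small, and no cell is an independent replicate.

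Splitting all cells by UMIs of Gzmk and Cx3cr1 gave 4 strata. Cells with Gzmk only numbered 999 in the recipient and 1102 in the donor, cells with both numbered 270 and 251, cells with Cx3cr1 only 95 and 56, and cells with neither 3977 and 6042. Their median depths were 4610 and 4530 UMIs (Gzmk only), 4388 and 4543 (both), 3599 and 3654 (Cx3cr1 only) and 7631 and 8288 (neither). The libraries had similar depth within a stratum, but cells with neither gene were deeper in both. A cell counts as lacking Gzmk or Cx3cr1 when no UMI was seen, so the stratum with neither may also hold cells that express them.

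Gzma was higher in recipient cells wherever Cx3cr1 was found, and not where Gzmk was found alone. In cells with both genes it stood at 856 CPM (808 to 905) in the recipient and 96.2 CPM (80.3 to 114) in donor cells, giving a log2 ratio of 3.15 [2.89, 3.43]. In cells with Cx3cr1 only it stood at 810 CPM (726 to 902) and 77.7 CPM (48.1 to 119), a ratio of 3.38 [2.75, 4.09]. In cells with Gzmk only the levels were 48.0 CPM (42.2 to 54.3) and 59.0 CPM (52.8 to 65.7), a ratio of -0.30 [-0.54, -0.06]. That last sign changed with the threshold, to 0.85 when 2 UMIs were asked for each of the 2 genes. In that setting cells with 1 Cx3cr1 UMI count as Gzmk only, so the value is not one for cells without Cx3cr1. Without cells of Trbv29 and Trbv14, the ratio with Gzmk only was -0.03 [-0.41, 0.35], which holds 0. In the donor, 201 of the 333 Gzma UMIs of that stratum were in 20 Trbv14 cells.

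The share of cells with a UMI of Gzma was also higher in the recipient in cells with both genes, at 27.8% (22.5 to 33.5) of recipient cells and 12.4% (8.55 to 17.1) of donor cells. In cells with Cx3cr1 only it was 34.7% and 19.6%, and 27.0% (18.1 to 37.4) and 13.0% (5.37 to 24.9) at 2000 UMIs, with intervals that overlapped at either depth. With Gzmk only it was 3.8% and 4.36%. In cells with neither gene it was found in 1.13% and 0.910%, against 0.764% and 0.745% in the wider naive-marked cells, with intervals that overlapped in both libraries. At 2000 UMIs per cell they were 0.407% and 0.316%, against 0.0694% and 0.0828% in the naive-marked cells, where 1 cell was positive in each library. The CPM in cells with neither gene were 5.70 (4.89 to 6.61) and 2.13 (1.75 to 2.57). In the wider naive-marked cells, which are part of that stratum, they were 1.04 (0.538 to 1.82) and 1.31 (0.696 to 2.23). The level was thus above that of the naive-marked cells in the recipient and overlapped it in the donor. The log2 ratio in cells with neither gene was 1.42 [1.07, 1.78], and without cells of Trbv29 and Trbv14, the receptor beta segments described below, that ratio was -0.23. The ratio in cells with Cx3cr1 only was 0.42 [-0.48, 1.33] without those segments, and in cells with both genes 2.46. In cells with neither gene, 118 of the 176 recipient Gzma UMIs were in 14 Trbv29 cells, and counting intervals do not cover such clustering.

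Gzmb was higher in the recipient in the strata with Gzmk, by less than over all cells. Its levels in cells with both genes were 241 CPM (216 to 268) in the recipient and 152 CPM (132 to 174) in donor cells, giving a log2 ratio of 0.67 [0.41, 0.92]. In cells with Gzmk only they were 103 CPM (94.8 to 112) and 73.7 CPM (66.8 to 81.1), a ratio of 0.49 [0.30, 0.68]. In cells with Cx3cr1 only the ratio was 0.54 [-0.07, 1.18], which holds 0. Without the leading segments of Gzmb it was -0.92 [-1.80, -0.08], on the other side of 0. In cells with neither gene the levels were 7.94 CPM and 3.17 CPM, a ratio of 1.33 [1.03, 1.62].

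Prf1 and Fasl were lower in the recipient in cells that had neither Gzmk nor Cx3cr1, where Gzma and Gzmb were higher. There Prf1 stood at 37.7 CPM (35.5 to 39.9) in the recipient and 59.2 CPM (57.1 to 61.3) in donor cells, giving a log2 ratio of -0.65 [-0.75, -0.55]. Fasl stood at 5.25 CPM (4.47 to 6.12) and 9.76 CPM (8.92 to 10.7), a ratio of -0.89 [-1.16, -0.64]. The make-up of this stratum differed between the libraries. Memory-marked cells, defined below, were 1040 of its 3977 recipient cells and 3189 of its 6042 donor cells, and wider naive-marked cells 1440 and 1208. Within memory-marked cells the ratio was -0.45 [-0.60, -0.30] for Prf1 and -0.10 [-0.42, 0.22] for Fasl. Within wider naive-marked cells it was -0.13 [-0.36, 0.10] for Prf1. The part of this mix in the stratum's ratios was not tested. In cells with Gzmk only, the ratio was 0.13 [-0.03, 0.29] for Prf1 and 0.00 [-0.26, 0.27] for Fasl. In cells with both genes it was 0.14 [-0.13, 0.42] for Prf1 and -0.10 [-0.59, 0.40] for Fasl, and all 4 of these intervals held 0. In other settings 2 of them left out 0, since Prf1 with both genes was 0.56 [0.07, 1.06] when 2 UMIs were asked for each, and Fasl with Gzmk only was -0.30 [-0.59, -0.01] without its leading Trbv segments.

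Set against all genes, 2 of the 4 members, Gzma and Gzmb, were at least 1.5-fold higher in cells with Gzmk and Cx3cr1, as were 2.1% of the 3379 genes with at least 100 UMIs there, while 0.917% were at least 1.5-fold lower. With Gzmk only, none of the 4 members passed 1.5-fold, where 1.51% of 7232 genes were higher and 0.83% lower. With Cx3cr1 only, 3 members had enough UMIs and Gzma alone was higher, as were 3.86% of 856 genes, while 1.17% were lower. With neither gene, Gzma and Gzmb were among the 2.6% of 10076 genes that were higher, and Prf1 and Fasl among the 2.91% that were lower.

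**Figure D2:**
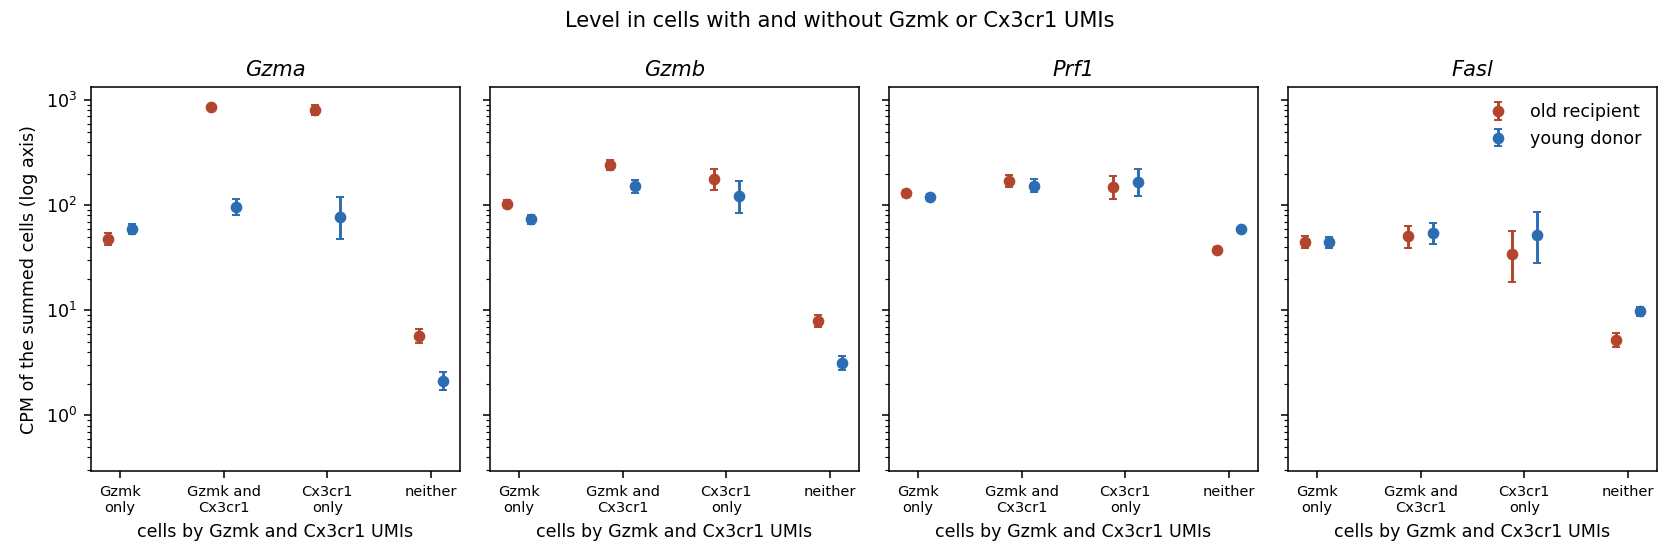
Level of each gene in CPM (log axis) in cells grouped by UMIs of Gzmk and Cx3cr1, with old recipient in red, young donor in blue and bars for 95% Poisson intervals. Gzma in cells with Cx3cr1 stands near 810 to 856 CPM in recipient cells and at 77.7 to 96.2 CPM in donor cells, while Prf1 and Fasl separate between the libraries in cells with neither gene.

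The strata held different parts of each gene's UMIs. Cells with Gzmk, Cx3cr1 or both held 91.0% of Gzma UMIs in recipient cells and 81.6% in donor cells, and 79.4% and 80.1% of Gzmb UMIs. For Prf1 the shares were 45.6% and 23.3%, and for Fasl 66.1% and 40.3%. In the recipient 61.3% of Gzma UMIs were in cells with both genes, whereas in the donor 56.3% were in cells with Gzmk only. The recipient library had a larger part of its cells in these strata, so the sums were also set to an equal mix. With the strata weighted as in the donor, the log2 ratio was 1.70 for Gzma, 0.74 for Gzmb, -0.43 for Prf1 and -0.49 for Fasl. The mix of cells within a stratum was not set equal.

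Other populations, set by UMIs of a few genes and overlapping with the strata, gave further values. In chemokine-marked cells, with UMIs of Ccl3 or Ccl4, the recipient was higher for all 4 genes, with log2 ratios of 2.41 [2.22, 2.61] for Gzma, 1.34 [1.17, 1.51] for Gzmb, 0.30 [0.16, 0.44] for Prf1 and 0.41 [0.17, 0.65] for Fasl. These cells numbered 940 and 1299 and held 60.2% and 58.5% of Gzmb UMIs, and their median depths of 4672 and 6294 UMIs differed. Gzma and Gzmb were at least 1.5-fold higher there, as were 5.05% of 7798 genes, and no member was among the 2.27% that were lower. Prf1 and Fasl thus had opposite signs in chemokine-marked cells and in cells with neither Gzmk nor Cx3cr1.

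Inhibitory-marked cells, with UMIs of Pdcd1 and Lag3, were the population where Gzma was lower in the recipient by the widest margin of those compared. They numbered 184 and 154, and Gzma stood at 74.6 CPM (59.0 to 93.1) in the recipient and 196 CPM (166 to 228) in donor cells, giving a log2 ratio of -1.39 [-1.80, -0.99], where 1.26% of 2381 genes were at least 1.5-fold lower. Its cells with a UMI were few, 12 and 15. Gzmb in the same cells was higher in recipient cells, at 237 CPM (209 to 269) against 103 CPM (82.4 to 128), a ratio of 1.20 [0.84, 1.57], where 4.96% of genes were at least 1.5-fold higher. The 2 granzyme genes thus had opposite signs by CPM in these cells, with that of Gzma resting on few cells.

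Memory-marked cells, with UMIs of Ccl5 and Cxcr3 and none of Gzmk and Cx3cr1, numbered 1040 and 3189. Gzmb was at 13.1 CPM (10.8 to 15.8) in the recipient and 3.56 CPM (2.90 to 4.32) in donor cells, giving a log2 ratio of 1.88 [1.48, 2.28], and Gzma was at 2.67 and 1.36 CPM, a ratio of 0.97 [0.16, 1.75]. Both were past 1.5-fold, but Gzma had 62 UMIs in all and was not counted with the 1.75% of 9129 genes that were so, and 1.4% of genes were at least 1.5-fold lower. Prf1 was at 51.8 and 70.6 CPM, a ratio of -0.45 [-0.60, -0.30]. This population held 51.3% of donor Prf1 UMIs and 42.8% of donor cells, with a median depth of 8738 UMIs against 7840 over all donor cells. Fasl was at 12.1 and 12.9 CPM, a ratio of -0.10 [-0.42, 0.22].

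Cycling-marked cells, with at least 2 of 6 proliferation genes, numbered 106 and 134. Gzma was at 166 CPM (144 to 191) in the recipient and 8.34 CPM (4.56 to 14.0) in donor cells, giving a log2 ratio of 4.32 [3.54, 5.21] that rests on 17 and 10 positive cells. Gzmb was at 147 and 33.3 CPM, a ratio of 2.14 [1.70, 2.61], and Prf1 at 67.8 and 36.3 CPM, a ratio of 0.90 [0.40, 1.41]. These 3 genes were at least 1.5-fold higher, as were 4.99% of 3350 genes, while 1.43% were at least 1.5-fold lower. Cells with UMIs of Ikzf2 and Izumo1r, genes linked to regulatory T cells, were too few in the donor to compare (82 and 12).

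NK-marked cells were examined because NK cells express all 4 genes. They numbered 224 and 90. Fasl was at 46.2 CPM (35.8 to 58.6) in the recipient and 14.6 CPM (7.0 to 26.8) in the donor, and it was found in 26.3% and 11.1% of these cells. They held 59 of the 392 recipient cells and 10 of the 712 donor cells with Fasl. For Gzma they held 14 of 191 and 9 of 145 cells, for Gzmb 28 of 457 and 15 of 406, and for Prf1 66 of 1632 and 32 of 2894. Without NK-marked cells the log2 ratios over all cells were 2.32 for Gzma, 1.20 for Gzmb, -0.26 for Prf1 and -0.34 for Fasl.

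**Figure D3:**
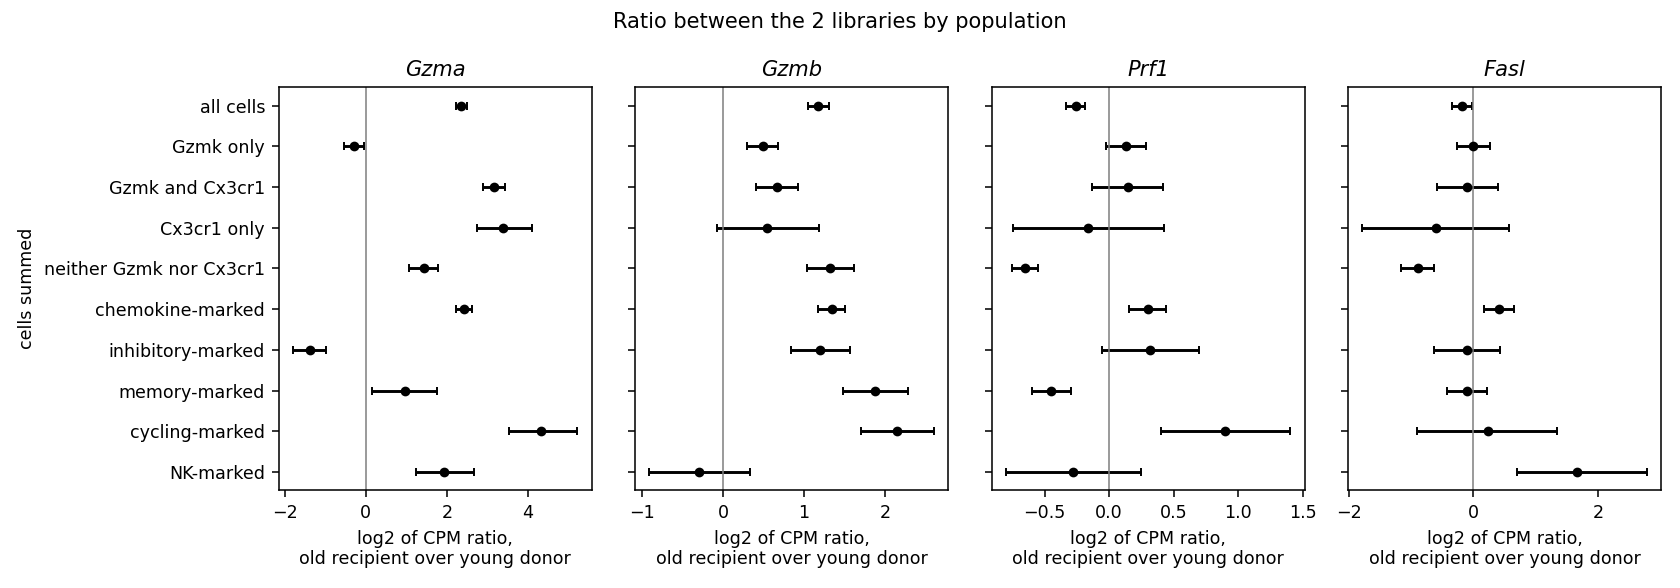
Log2 ratio of CPM, old recipient over young donor, for each gene in all cells and in 9 populations that can overlap, with 95% counting intervals. The x axis differs between panels. Gzma lies below 0 in cells with Gzmk only and in inhibitory-marked cells and above 0 in the rest, and Prf1 and Fasl lie on both sides of 0.

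The 4 genes were also counted together in single cells. At least 1 of them was found in 2010 recipient cells (37.6%) and 3402 donor cells (45.7%), and most of these held 1 gene. Prf1 alone accounted for 1216 of the positive cells (60.5%) among recipient cells and 2323 (68.3%) among donor cells. At least 2 genes were found in 24.8% of positive recipient cells (22.9 to 26.7) and 18.4% of positive donor cells (17.1 to 19.8). At 2000 UMIs per cell the shares were 21.6% (19.1 to 24.3) and 13.1% (11.3 to 15), so the order of the libraries was kept at equal depth.

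All 4 genes together were found in 22 recipient and 21 donor cells. The combination of Gzma and Gzmb without the other 2 was found in 42 recipient and 11 donor cells, and Gzma, Gzmb and Prf1 without Fasl in 41 and 20. Prf1 and Fasl without a granzyme among the 2 counted was found in 116 recipient cells (2.17%) and 301 donor cells (4.04%), and in 0.665% and 0.689% at 2000 UMIs per cell, so this difference was not seen at equal depth. In the recipient the most common pair was Gzmb with Prf1 (132 cells), and in the donor Prf1 with Fasl. At 2000 UMIs it was Gzmb with Prf1 in both, with 53 recipient and 55 donor cells, the latter close to the 51 with Prf1 and Fasl.

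**Figure D4:**
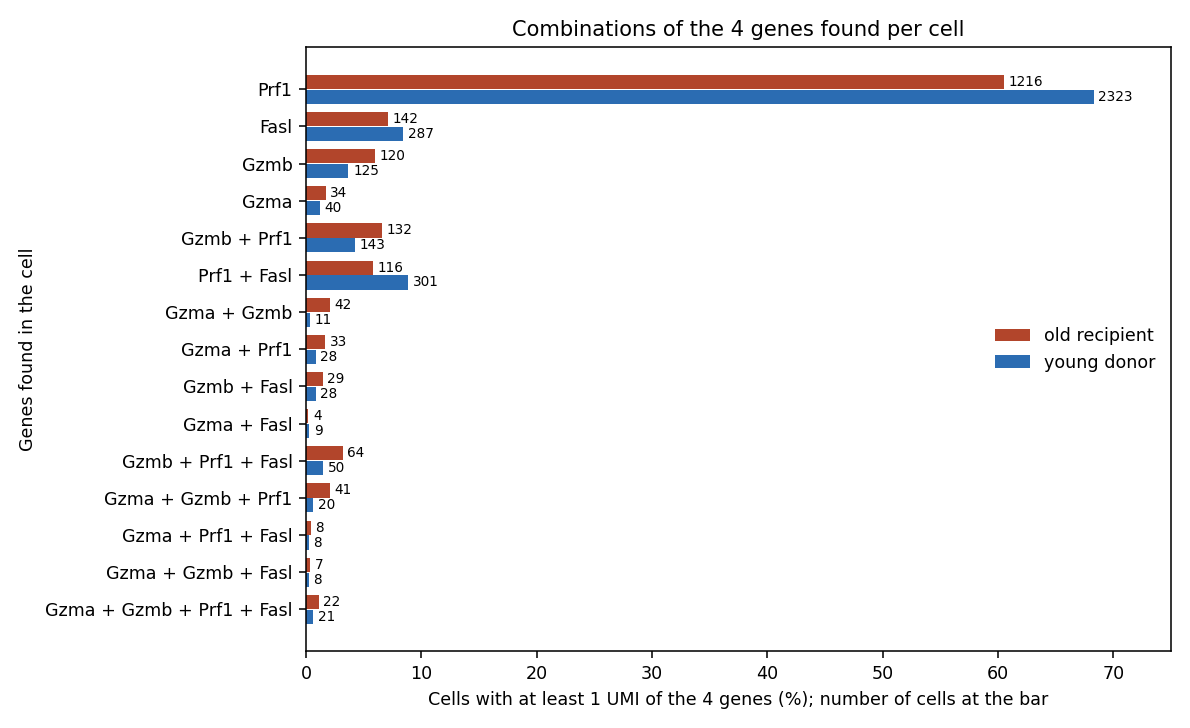
Percent of cells with at least 1 of the 4 genes (x axis) that held each of the 15 combinations (y axis), with old recipient in red, young donor in blue and the number of cells at each bar. Prf1 alone leads in both libraries with 60.5% and 68.3%, and Gzma with Gzmb, with or without Prf1, makes up a larger share in the recipient (42 and 41 cells) than in the donor (11 and 20 cells).

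Finding 1 gene went with finding the others. Gzmb was found in 58.6% (51.3 to 65.7) of recipient cells with Gzma and in 6.70% of those without, and in 41.4% (33.3 to 49.8) and 4.74% in the donor. Gzma was found in 24.5% and 14.8% of cells with Gzmb and in 1.62% and 1.21% of those without. Fasl was found in 21.5% of recipient cells and 31.7% of donor cells with Gzma, against 6.82% and 9.12% without. As given above, cells with Gzma had fewer UMIs in total than cells without it.

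At 2000 UMIs the pair of granzymes kept its difference between the libraries, with Gzmb in 56.1% (47.2 to 64.7) of recipient cells and 34.5% (24.6 to 45.4) of donor cells with Gzma. Before thinning, Trbv29 made up 40.3% of recipient and 5.59% of donor Gzma-positive cells with an assigned segment. The difference without that segment was not tested. Prf1 was found in 32.6% and 34.5% of the thinned cells with Gzma and in 11.8% and 13.4% of those without. With Gzmb it was found in 30.8% and 38%, against 11.3% and 13.0%. Fasl and Prf1 met in 31.4% of recipient cells and 26.9% of donor cells with Fasl, against 11.7% and 13.2% without. The intervals of the 2 libraries overlapped for each of these 3 pairs with Prf1.

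The T cell receptor beta segment (Trbv) with the most UMIs was assigned to 97.3% of recipient cells and 96.6% of donor cells. A clone shares 1 beta chain, but cells of 1 segment can also be several clones, and receptor sequences were not used here. The effective number of segments, the inverse of the sum of squared shares, was 16.8 in the recipient and 16.2 in the donor over all cells. By UMIs it was 3.04 for Gzma, 11.5 for Gzmb, 16.1 for Prf1 and 14.3 for Fasl in the recipient, and 5.65, 11.1, 15.9 and 13.9 in the donor. Prf1 was thus spread over segments much as the cells were, and Gzma was the most uneven of the 4 by UMIs in both libraries. Counted by positive cells the number was 5.37 for Gzma and 12.2 for Gzmb in the recipient. In the donor it was 11.1 and 12.2, so there the 2 genes were close when cells were counted.

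Gzma UMIs in the recipient were mainly in Trbv29 cells. That segment held 54.2% of the assigned Gzma UMIs and 7.83% of the cells, and Gzma was found in 73 of its 407 cells (17.9%, 14.3 to 22.0). Trbv5 followed with 16.7% of UMIs from 11 positive cells, 1 of which held 123 UMIs. In the donor Trbv29 held 3.25% of Gzma UMIs and 6.40% of cells, with Gzma in 8 of 461 cells. There Trbv14 led with 35.4% of UMIs and 5.28% of cells (24 of 380 positive), then Trbv15 with 14.4% from 4 positive cells and Trbv31 with 10.8%.

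The leading segments also differed in their strata. Of recipient Trbv29 cells, Gzma was found in 27 of 32 with Gzmk and Cx3cr1 (84.4%), 22 of 42 with Cx3cr1 only (52.4%), 10 of 39 with Gzmk only (25.6%) and 14 of 294 with neither (4.76%). Of donor Trbv14 cells, it was found in 20 of 127 with Gzmk only (15.7%), 0 of 13 with both, 0 of 1 with Cx3cr1 only and 4 of 239 with neither (1.67%). Without Trbv29 and Trbv14 cells in both libraries, the log2 ratio of Gzma over all cells was 1.97, against 2.35 with them.

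Alpha segments (Trav) were looked at after the Trbv values had been seen, in cells where a leading one was found. The Trav segment given for a gene was the most common one among its positive cells. That choice by itself favours an excess over negative cells, here and for Gzmb and Fasl below. Trav12-1 led in 29 of 52 Gzma-positive Trbv29 cells of the recipient (55.8%) and in 16 of 241 Gzma-negative ones (6.64%). This pair of segments was found in 45 cells, which held 492 Gzma UMIs or 25.1% of the library's. Trav6-3 led in 11 of 15 Gzma-positive Trbv14 cells of the donor and in 35 of 243 negative ones (14.4%), and held 126 UMIs or 21.3% of the library's. In recipient Trbv5 cells Trav6-7-dv9 led in 6 of 10 positive cells, with 298 UMIs.

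Gzmb UMIs were spread more widely than those of Gzma. In the recipient Trbv29 held 14.0% of its UMIs, Trbv1 12.6% and Trbv5 12.4%, and in the donor Trbv12-1 held 17.9%, Trbv14 10.6% and Trbv19 9.89%. Trbv5 had the highest share of positive cells among the leading recipient segments, 66 of 308 (21.4%, 17.0 to 26.4), against 5 of 202 (2.48%) in the donor. Trbv12-1 had 63 of 769 positive cells in the donor (8.19%) and 13 of 294 in the recipient (4.42%). Within recipient Trbv5 cells, Trav12-2 led in 41 of 61 Gzmb-positive cells and in 43 of 183 negative ones (23.5%).

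The same Trbv5 and Trav12-2 cells stood out for Fasl, with Trav12-2 in 20 of 26 Fasl-positive and 64 of 218 Fasl-negative Trbv5 cells. Trbv5 held 10.0% of recipient Fasl UMIs against 5.93% of cells, and Trbv12-1 held 12.9% of donor Fasl UMIs against 10.7% of cells. For Prf1 the leading segment by UMIs was the most common one of each library, Trbv13-2 (9.43% of UMIs, 9.24% of cells) and Trbv12-1 (11.5% and 10.7%) in turn. No member other than Gzma had a segment above 17.9% of its UMIs. The leading recipient segments of Gzmb, Prf1 and Fasl changed with the setting, to Trbv1 or Trbv5 for Gzmb and to Trbv16 for Prf1 and Fasl, whereas those of the donor and of Gzma did not in the settings tried.

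**Figure D5:**
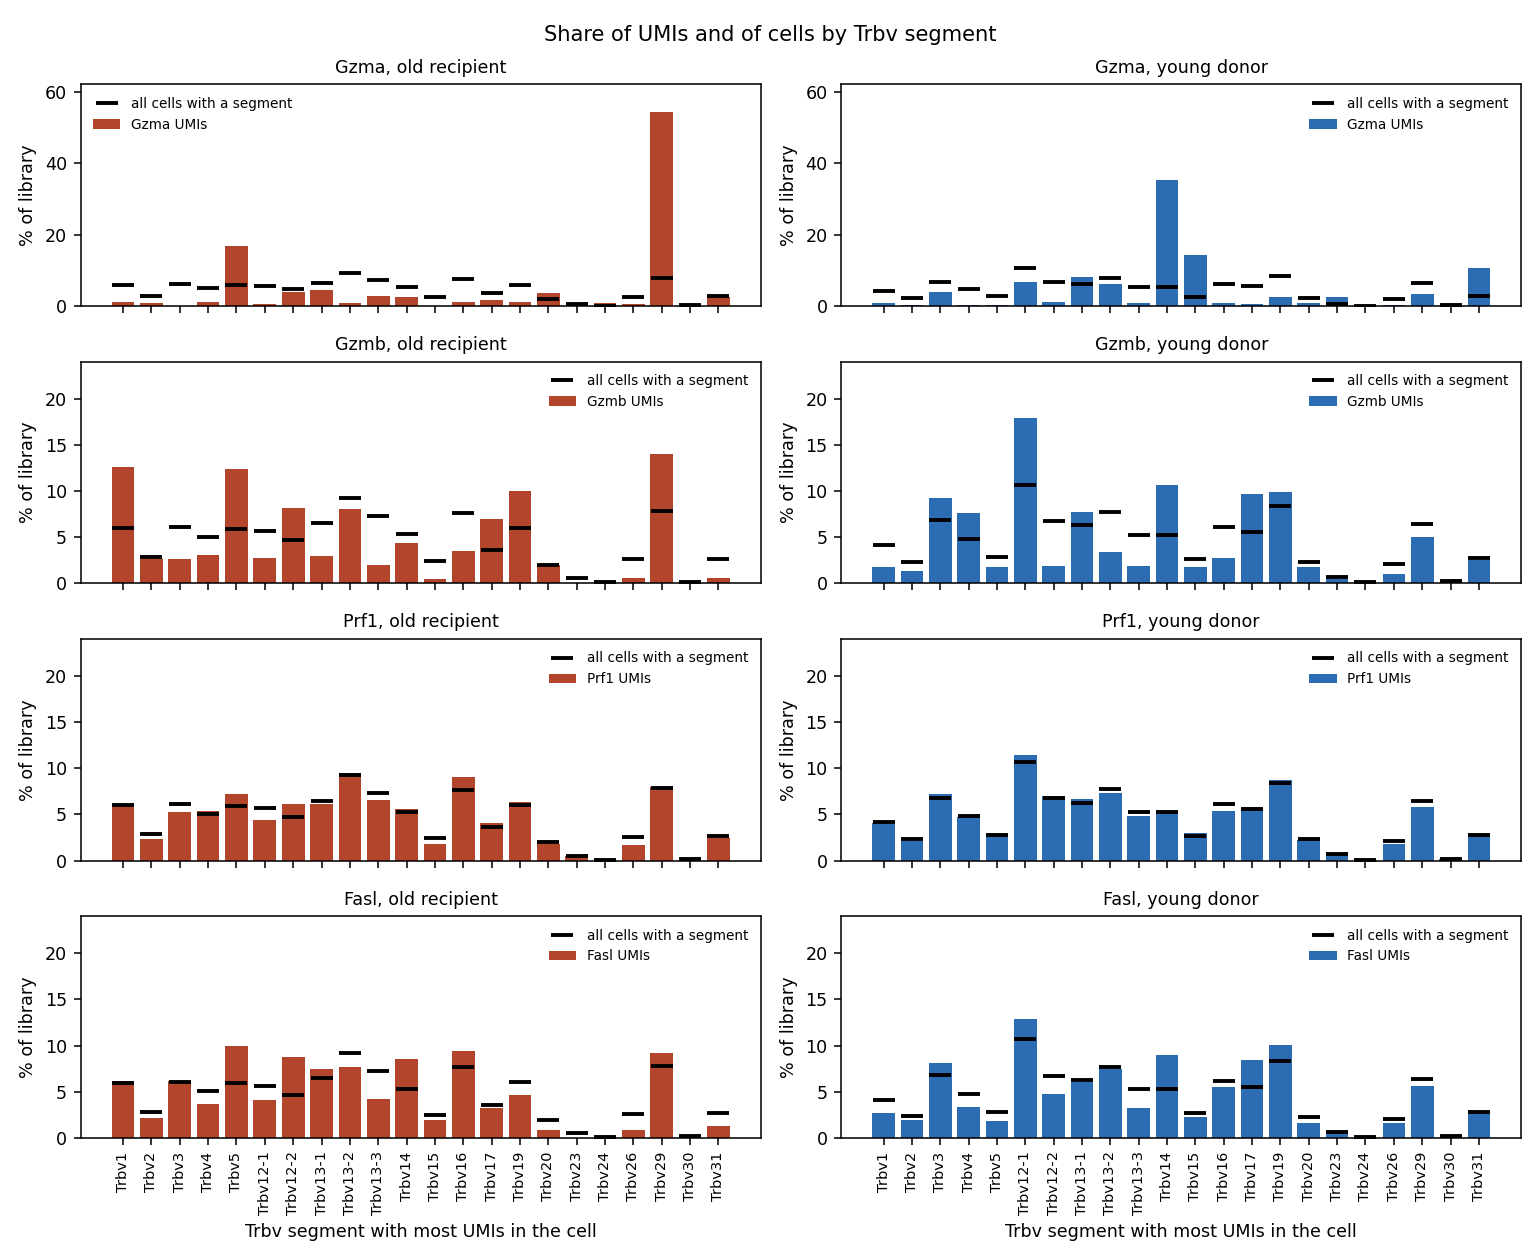
Percent of each gene's UMIs (bars) and of all cells with a segment (black marks) by Trbv segment, with old recipient on the left in red and young donor on the right in blue. The Gzma panels run to 62% and the others to 24%. Gzma peaks at Trbv29 with 54.2% in the recipient and at Trbv14 with 35.4% in the donor, while the Prf1 bars follow the black marks.

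Genes most like each member were ranked by the lower of the 2 libraries' correlations over cells, among 9061 genes found in at least 1% of cells of both. These correlations are weak, share library and depth, and describe order only. For Gzma the list was Gzmb (r of 0.42 in the recipient and 0.30 in the donor), Cx3cr1 (0.46 and 0.20), Klrg1 (0.45 and 0.18), Zeb2 (0.50 and 0.17) and Lgals3 (0.39 and 0.16), the last coding for galectin-3. For Gzmb it was Gzmk (0.34 and 0.35), Nkg7 (0.36 and 0.30), Gzma, Cx3cr1 (0.32 and 0.29) and the class I gene H2-D1 (0.33 and 0.28).

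Prf1 and Fasl shared their closest gene. This was Ccl5, a chemokine gene abundant in memory CD8 T cells, with 0.34 and 0.28 for Prf1 and 0.31 and 0.26 for Fasl. Prf1 went on with Nkg7 (0.32 and 0.26), S100a6 (0.25 and 0.20), Gzmk (0.32 and 0.19) and Gimap4 (0.19 and 0.17). Fasl went on with Gzmk (0.28 and 0.24), Nkg7 (0.27 and 0.24), Gzmb (0.23 and 0.22) and the chemokine gene Ccl4 (0.30 and 0.22). Ccl5 was found in 605 of the 609 donor cells with 1 Fasl UMI and in all 103 with more, against 77.5% of donor cells without Fasl.

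Other genes of the killing machinery were read from lists. Of 10 granzyme genes, 4 had at least 100 UMIs over both libraries, and 3 of these were at least 1.5-fold higher in the recipient (3.26% of all genes were), namely Gzma, Gzmb and Gzmk (192.9 and 110.6 CPM, log2 ratio 0.80 [0.75, 0.85]). The fourth, Gzmm, was lower (as were 2.03% of all genes), at 36.7 and 99.3 CPM, a log2 ratio of -1.44 [-1.52, -1.35]. Gzmc had 3 and 10 UMIs, Gzmf 0 and 1, and Gzmd, Gzme, Gzmg and Gzmn 0 in both. In cells with neither Gzmk nor Cx3cr1 Gzmm stood at 33.2 and 105 CPM, a log2 ratio of -1.66 [-1.76, -1.56]. Granzyme M, its product, is a granule protease found in innate-like lymphocytes and NK cells.

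Granule contents and processing genes stayed near the median of all genes. Of 12 genes, 10 had enough UMIs, none was past 1.5-fold and the median log2 ratio was -0.08, against 0.04 for all genes. Ctsc, which codes for the protease that activates granzymes, had 0.26 [0.18, 0.34], Srgn, the proteoglycan core of the granule, 0.17, and Ctsd 0.08. Ctsw (-0.26), Prf1 (-0.26) and Cst7 (-0.18), an inhibitor of cathepsins, were the lowest 3.

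Granule transport and release genes were near the median of all genes, with 13 of 14 measured well enough, none past 1.5-fold and a median of 0.11. The syntaxins Stx7 (0.47 [0.32, 0.63]) and Stx11 (0.45 [0.24, 0.66]) and Arf6 (0.28) were the highest. Lyst (-0.40 [-0.50, -0.30]), whose loss enlarges lytic granules, Vamp7 (-0.26) and Rab27a (-0.05) were the lowest. Among 11 death ligands and receptors none was past 1.5-fold and the median was 0.08. Fas, the receptor of Fas ligand, stood at 31.7 and 25.3 CPM, a log2 ratio of 0.32 [0.21, 0.43], and the death ligand gene Tnfsf10 at 11.6 and 14.3 CPM, a ratio of -0.30 [-0.47, -0.13].

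Transcription factors of effector cells gave 2 of 16 genes at least 1.5-fold higher and 1 lower, beside 3.26% and 2.03% of all genes, and a median of 0.20. Zeb2 had a log2 ratio of 0.64 [0.42, 0.85] and Irf4, at 84 and 68 UMIs, 0.93 [0.45, 1.41]. Tbx21, the gene of T-bet, which drives granzyme B and perforin in effector cells, was lower at 41.0 and 65.3 CPM, a ratio of -0.67 [-0.76, -0.59]. Eomes, its paralogue, had -0.18 [-0.25, -0.11]. Of 12 surface genes of effector memory cells with enough UMIs, 3 were higher, namely Klrg1 (1.32 [1.14, 1.5]), Cx3cr1 (1.04 [0.87, 1.21]) and Klrk1 (0.83 [0.74, 0.91]). The 2 that were lower were S1pr5 (-0.75 [-0.91, -0.60]) and Il2rb (-0.59 [-0.63, -0.55]), and the median was -0.11. The same 3.26% and 2.03% of all genes stand beside these counts.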

How the data were processed

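The values used were raw UMI counts, not normalized, as the authors deposited them for each barcode. Per the submitters' processing notes, the tools were Cell Ranger and Seurat on mm10, and the version per the file headers was 3.0.2; the annotation and the cell-calling rule are not given in the sources used here. Receptor libraries made from the same cells were not analysed here.

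The 31053 features were summed to 31017 symbols and matched by ID to GENCODE M21 (GRCm38) for 99.6%. Barcodes with fewer than 500 genes or over 10% mitochondrial UMIs (555 and 587) were left out, then 278 and 550 likely doublets, scored against simulated doublets at 0.8% per 1000 barcodes. Totals of kept cells were 37868090 (recipient) and 58398797 UMIs (donor), which makes 1 UMI worth 0.0264 and 0.0171 CPM. Counts at the 5′ end were not scaled to length, so levels were compared only within a gene. UMIs were summed per library and divided by the same cells' total. Intervals are exact Poisson (CPM), exact binomial (shares), exact for 2 Poisson sums (ratios) or log intervals (share ratios). Called means at least 1.5-fold with at least 100 UMIs over both libraries. Genes named were the 4 members, the 5 most like each, the highest and lowest 3 of 6 lists, any granzyme, and the leading Trbv segments with up to 3 per gene. The members and lists were chosen with earlier results of these data known. A surface gene of the lists is not reported here and was left out of the counts. Populations were set by UMIs of fixed genes and can overlap. The ratio and thinning steps were tested on simulated data. Python 3.11.15, scipy 1.17.1, scikit-learn 1.9.0 and edgeR 4.0.16 (TMM factors only) were used.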

Additional observations from a re-analysis of the deposited data

Results flagged for a closer look

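The ratio between the libraries had opposite signs in different populations for 3 of the 4 genes, with 95% counting intervals that left out 0 on both sides. The difference between populations was not tested, the populations overlap in part, and each value rests on 1 library per group.

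For Gzma the log2 ratio, old recipient over young donor, was 3.38 in cells with Cx3cr1 only, 3.15 with Gzmk and Cx3cr1, 1.42 with neither, 0.97 in memory-marked, 1.92 in NK-marked, 2.41 in chemokine-marked and 4.32 in cycling-marked cells. It was -0.30 in cells with Gzmk only and -1.39 in inhibitory-marked cells. Of these, the value with Gzmk only turned to 0.85 [0.65, 1.05] when 2 UMIs of the genes were asked for. Cells with 1 Cx3cr1 UMI count as Gzmk only in that setting. Without Trbv29 and Trbv14 cells the value with neither gene turned to -0.23 [-0.75, 0.27], and that with Cx3cr1 only was 0.42 [-0.48, 1.33]. The value with Gzmk only was -0.03 [-0.41, 0.35] without them, an interval that holds 0. Few cells with a UMI carry some values, 12 and 15 in inhibitory-marked, 17 and 10 in cycling-marked, 14 and 9 in NK-marked and 11 and 32 in memory-marked cells. The share of cells with Gzma at 2000 UMIs ran the other way in NK-marked cells (4.93% and 7.78%) and in memory-marked cells (0.193% and 0.377%).

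For Prf1 it was 0.30 in chemokine-marked and 0.90 in cycling-marked cells, and -0.65 in cells with neither Gzmk nor Cx3cr1 and -0.45 in memory-marked cells. For Fasl it was 1.66 in NK-marked cells, from 67 and 10 UMIs, and 0.41 in chemokine-marked cells, and -0.89 in cells with neither Gzmk nor Cx3cr1. Chemokine-marked cells were shallower in the recipient (4672 UMIs) than in the donor (6294 UMIs), and the part of depth in these ratios was not tested.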

How the results depend on the processing

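With 1 library per group there was no replicate to leave out and no test, so a value was compared with its own counting interval. Of 126 other settings tried 92 stayed inside it, 33 moved out and 1 turned. For the leading Trbv segment this compares the size of the largest share, and in the recipient the segment itself changed for Gzmb (Trbv29 to Trbv1 or Trbv5), Prf1 (Trbv13-2 to Trbv16) and Fasl (Trbv5 to Trbv16). The turned one was the Prf1 ratio of shares of cells, 1.30 (0.972 to 1.74) with at least 2 UMIs asked for after thinning, where Fasl was 0.762. The cause of each move was not tested unless it is part of how the alternative was built.

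The log2 ratio of Gzma was 2.17 with no doublets removed, 2.66 without the 10 richest cells and 1.97 without its leading Trbv segments. The 10 richest cells held a larger part of the donor UMIs than of the recipient UMIs, so leaving them out raises the ratio by construction. With each cell scaled to its own total, Gzmb was 0.90 and Prf1 -0.11. TMM scaling gave 2.31, 1.13, -0.31 and -0.23 for Gzma, Gzmb, Prf1 and Fasl. Without thinning the ratios of shares were 1.57 for Gzmb, 0.787 for Prf1 and 0.768 for Fasl.

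With at least 2 UMIs of Gzmk or Cx3cr1 asked for, such cells held in the recipient and donor 75.9% and 69.2% of Gzma UMIs, 70.7% and 70.4% of Gzmb, 39.7% and 19.8% of Prf1 and 57.5% and 34.9% of Fasl. With all cells thinned to 2000 UMIs they held 81.2% of recipient Gzma, 72.6% of recipient Gzmb, 49.5% and 29.4% of Prf1 and 50.3% of donor Fasl. With no doublets removed they held 85.1% of donor Gzma and 25.0% of donor Prf1.

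The leading Trbv segment of Gzma in the recipient held 47.5% with at least 3 UMIs of the segment, 50.2% with no doublets removed and 40.3% of positive cells. In the donor it held 28.2% with no doublets removed and 16.8% of positive cells. At least 2 of the 4 genes were found in 21.6% and 13.1% of positive cells after thinning, and in 20.4% and 9.01% with at least 2 UMIs per gene. Alternatives for ratios within strata were chosen after the data were seen. Gzma turned to 0.85 with Gzmk only (at least 2 UMIs, where cells with 1 Cx3cr1 UMI count as Gzmk only). It turned to -0.23 with neither gene and moved to -0.03 with Gzmk only (without its leading Trbv segments). Prf1 with both genes moved to 0.56 (at least 2 UMIs) and Fasl with Gzmk only to -0.30 (without its leading segments). Gzmb with Cx3cr1 only moved to -0.92 [-1.80, -0.08] (without its leading segments). No paired analysis was possible because each group had 1 library and no test was made.

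A ratio near 1.5-fold is not settled by counting error, since the spread between mice is not known from these files. Depth limits Gzmb, Prf1 and Fasl, as most of their positive cells held a single UMI.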
